A study of Mus musculus with 2 samples.

Results

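The genes examined here encode the enzymes that write and erase methyl and acetyl marks on histones, and were examined for PHLPP1 signal in alveolar macrophages of the mouse, which live in the air spaces of the lung. They were chosen by symbol among autosomal protein-coding genes of the RefSeq annotation behind mm10, as those starting with Kdm, Kmt2, Kmt5, Kat and a number, Hdac, Setd, Ezh, or Sirt and a number, together with Ep300, Crebbp, Suz12 and Eed. This gave 63 of 20661 autosomal protein-coding genes. They fall into 4 core subunits of Polycomb repressive complex 2 (PRC2), 7 KMT2 and SETD1 methyltransferases, 11 other SETD and KMT5 methyltransferases, 15 KDM demethylases, 10 acetyltransferases, 9 HDAC deacetylases and 7 sirtuins.

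Where the phosphatase PHLPP1 sits on DNA was profiled by CUT&Tag, in which an antibody held in permeabilised cells directs a transposase to cut and tag the DNA beside its target. The IL-4 group held wild-type (WT) alveolar macrophages from bronchoalveolar lavage fluid, given interleukin-4 at 20 ng/ml for 4 h, and the untreated group held the same kind of cells without it. Each group was 1 library, so differences between the libraries have no replicate check and carry no p-value. A library with a non-specific antibody was not analysed here, and signal that does not come from PHLPP1 cannot be told apart. The age of the animals and whether cells were pooled are not given in the sources used here.

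Histone marks are set by opposed enzymes. Methyltransferases place methyl groups on lysines, with the KMT2 and SETD1 enzymes acting on H3K4 at promoters and enhancers and PRC2 on H3K27 at silent genes, and KDM demethylases take such groups off. Acetyltransferases such as p300 and CBP open chromatin at active enhancers, and HDAC enzymes and sirtuins remove acetyl groups. In macrophages Kdm6b, an H3K27 demethylase, is known from work on alternative activation, the programme IL-4 drives, and Hdac3 is known as a brake on it.

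The IL-4 list held 226476 regions and the untreated list 165968. The reads behind them are not given, but the fold and p of each region return the number of fragments piled up at its summit and the background it was set against. The constant background was 15.9 fragments in the IL-4 library and 13.9 in the untreated library, a ratio of 1.14. Folds below are the authors' own and are not scaled between libraries. A −log10 q, also the authors', is a region's p after correction for multiple testing, and larger values are stronger. Of 10 genes that mark alveolar macrophages, 8 had a region at their start in the IL-4 library and 8 in the untreated library, all except Chil3 and Krt79. Of 8 T and B cell markers, 2 did in the IL-4 library and 1 in the untreated library, and of 8 lung epithelial markers 6 did in each. These libraries measure no RNA, so such regions say nothing direct about which cells were present.

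Nearly every histone enzyme gene held a listed region, and most had one at their start. The lists include weak regions, down to a −log10 p of 2.03 in the IL-4 library and 2.0 in the untreated library. A window of the gene body and 2 kb each side held at least 1 region for 63 of 63 genes in the IL-4 library (95% exact interval 94.3 to 100%), where 87.9% of all autosomal protein-coding genes did. In the untreated library it did so for 60 of 63 (95.2%, 86.7 to 99%), against 80.8% of all genes. The genes with a window region in the IL-4 library alone were Setdb1, Kdm5b and Kat8, and 0 genes had one in the untreated library alone. The matching shares over all genes were 8.93% for IL-4 alone and 1.83% for untreated alone. With −log10 q limited to 5 or more, 62 enzyme genes in the IL-4 library and 50 in the untreated library had a window region. With a fold of 3 or more, 59 and 41 did. Window shares of all genes were not counted at these limits. These windows are long, with a median of 42.9 kb against 21.5 kb for all genes, and a longer window catches a region more easily. Among the 29 enzyme genes with windows of 20 to 50 kb, 29 had a region in the IL-4 library and 28 in the untreated library, against 95.6% and 90.0% of all genes of that length.

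Gene starts give a measure that does not grow with gene length. A start was the transcription start in the RefSeq promoter table, with 1 kb each side, for the 51 genes that the table holds, and either end of the gene for the other 12, whose strand was not given. Every listed start was searched, up to 4 for an enzyme gene (Kdm2b and Hdac7). Genes with more listed starts, or with both ends used, were thus searched over more bases. For 5 genes, Hdac4, Kat5, Kmt2d, Setd5 and Sirt4, the listed starts lie over 1 kb inside the outer end of the gene, and a region at that outer end does not count as a start region. In the IL-4 library 59 of 63 genes (93.7%, 84.5 to 98.2%) had a start region, against 69.5% of all genes. In the untreated library 52 (82.5%, 70.9 to 90.9%) had one, against 57.5% of all genes. With −log10 q limited to 5 or more, 54 genes in the IL-4 library and 38 in the untreated library had one, where all genes gave 52.6% and 34.3%. A start fold of 3 or more was seen at 47 genes in the IL-4 library and 32 in the untreated library, against 41.8% and 27.5% of all genes, and a fold of 6 or more at 18 and 7, against 12.3% and 4.31%. The median start fold was 4.80 in the IL-4 library and 3.52 in the untreated library, beside 3.51 and 2.89 over all genes with a start region.

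The starts of these genes are rich in CG dinucleotides, and start regions were frequent at such promoters in general. The part of this in the counts above was not tested. The 71 listed promoters of 300 bases had a median of 23 CG dinucleotides and 61.7% GC, against 14 and 57.0% for the 20084 promoters of autosomal protein-coding genes. The 20 enzyme genes with 30 or more in a promoter had a start region in both libraries, where 86.9% of all such genes had one in the IL-4 library and 78.5% in the untreated library. With 20 to 29, 13 of 14 enzyme genes had one in each library, against 89.2% of all genes in the IL-4 library and 79.7% in the untreated library. With 10 to 19, 15 of 15 enzyme genes had one in the IL-4 library and 9 of 15 in the untreated library, against 81.0% and 68.6% of all genes. Hdac9 and Setd5, the 2 enzyme genes under 10, had no start region in either library.

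**Figure D1:**
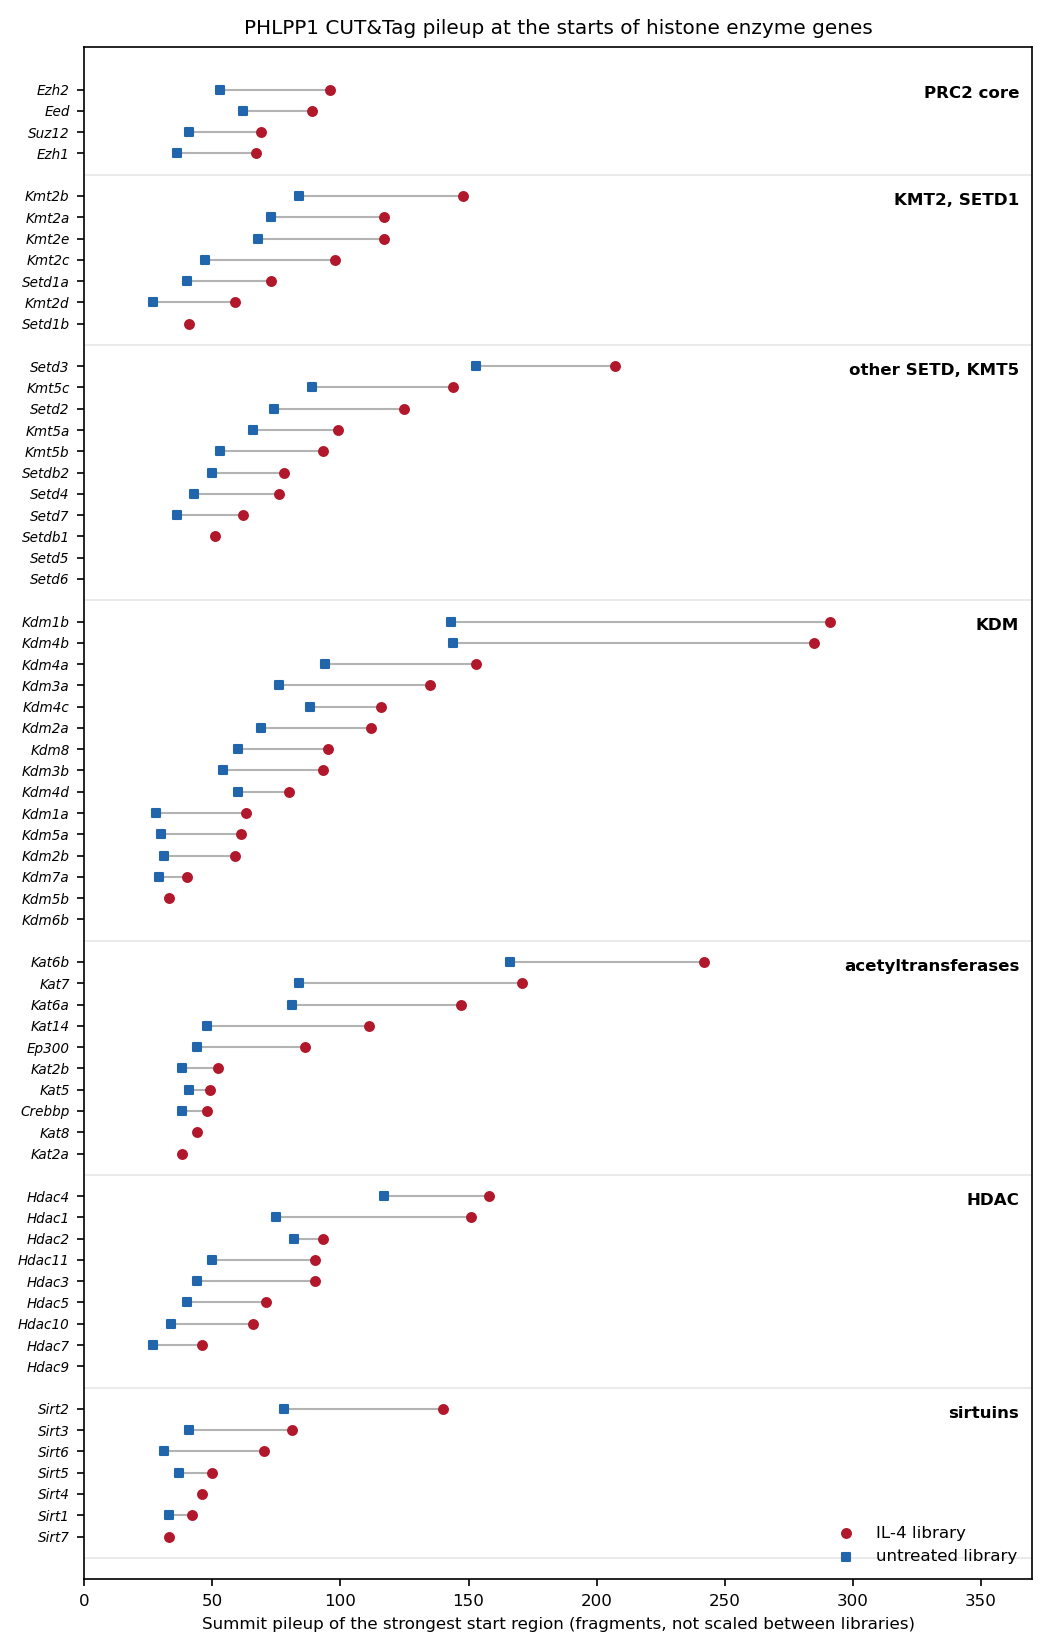
Fragments at the summit of the strongest start region of each of the 63 genes, by enzyme class, in the IL-4 library (red circles) and the untreated library (blue squares), with a grey line joining both values of a gene and no symbol where a library had no start region. The red circle lies to the right of the blue square for all 52 genes that have both, and Kdm1b and Kdm4b lie furthest right in the IL-4 library.

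The summits of these regions lay close to the transcription start, mostly just upstream. A start region had to reach within 1 kb of a start, so nearness is partly set by that choice. Summit distances were not measured over all genes, so this is not shown to be particular to the enzyme genes. For genes with a listed start, the median summit was 104 bp upstream in the IL-4 library and 109 bp upstream in the untreated library. Within 250 bp of a start lay 34 of 48 summits in the IL-4 library and 29 of 42 in the untreated library. Upstream summits numbered 37 of 48 and 30 of 42. Some genes departed from this in both libraries alike. Summits lay 969 bp (IL-4) and 971 bp (untreated) upstream of the Ep300 start, 797 bp (IL-4) and 801 bp (untreated) upstream for Crebbp, 953 bp (IL-4) and 808 bp (untreated) for Kmt2d, and 898 bp (IL-4) and 885 bp (untreated) for Kmt2c. Those of Kmt5b and Kat6b lay downstream instead, at 944 bp (IL-4) and 967 bp (untreated) for Kmt5b and at 907 bp (IL-4) and 975 bp (untreated) for Kat6b.

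**Figure D2:**
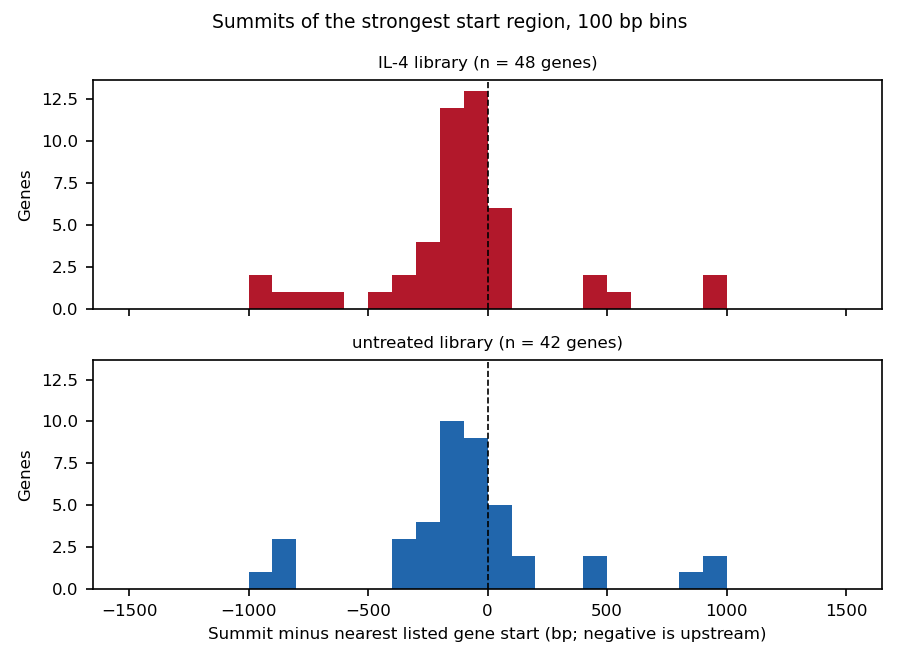
Distance of the summit of the strongest start region from the nearest listed transcription start, in 100 bp bins, for 48 genes in the IL-4 library (upper panel) and 42 in the untreated library (lower panel). Both panels are highest in the 200 bp just upstream of the start, with medians of −104 and −109 bp.

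The promoters that follow show the DNA under strong start regions of 4 classes and under 2 regions listed with IL-4 alone. They run 5′ to 3′ in the direction of the gene, from 250 bases before the start to 50 after it, from RefSeq on GRCm38.p6 (mm10). Capitals mark matches to the patterns searched. Regions of both libraries covered all 300 bases at Kdm1b, Setd3, Kat7 and Hdac4, and only those of the IL-4 library did at Kat8 and Sirt4, where untreated regions covered 0 bases.
Kdm1b (chr13:47043249-47043548, plus strand): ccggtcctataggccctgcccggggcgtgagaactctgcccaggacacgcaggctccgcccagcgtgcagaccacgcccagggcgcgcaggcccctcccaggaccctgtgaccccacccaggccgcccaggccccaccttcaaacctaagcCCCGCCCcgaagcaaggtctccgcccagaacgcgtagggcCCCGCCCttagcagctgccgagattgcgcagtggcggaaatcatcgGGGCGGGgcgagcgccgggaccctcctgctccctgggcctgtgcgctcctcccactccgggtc
Setd3 (chr12:108179192-108179491, minus strand): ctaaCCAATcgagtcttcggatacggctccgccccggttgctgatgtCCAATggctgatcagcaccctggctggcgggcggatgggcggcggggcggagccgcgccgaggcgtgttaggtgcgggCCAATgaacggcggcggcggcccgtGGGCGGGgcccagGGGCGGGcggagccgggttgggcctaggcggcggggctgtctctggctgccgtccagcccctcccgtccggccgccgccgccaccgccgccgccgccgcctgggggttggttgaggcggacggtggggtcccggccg
Kat7 (chr11:95310197-95310496, minus strand): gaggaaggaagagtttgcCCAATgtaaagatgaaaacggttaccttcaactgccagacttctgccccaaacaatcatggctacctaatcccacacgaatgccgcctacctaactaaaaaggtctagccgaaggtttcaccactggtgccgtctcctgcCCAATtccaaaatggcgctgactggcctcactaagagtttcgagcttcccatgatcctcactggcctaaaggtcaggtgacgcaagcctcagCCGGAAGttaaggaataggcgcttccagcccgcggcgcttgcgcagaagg
Hdac4 (chr1:92180292-92180591, minus strand): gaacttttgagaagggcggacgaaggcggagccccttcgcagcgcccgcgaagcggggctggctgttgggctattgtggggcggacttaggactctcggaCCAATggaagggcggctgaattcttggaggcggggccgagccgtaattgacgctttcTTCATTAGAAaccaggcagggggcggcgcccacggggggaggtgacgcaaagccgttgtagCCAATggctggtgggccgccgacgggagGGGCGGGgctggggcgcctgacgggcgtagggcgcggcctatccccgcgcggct
Kat8 (chr7:127912267-127912566, plus strand): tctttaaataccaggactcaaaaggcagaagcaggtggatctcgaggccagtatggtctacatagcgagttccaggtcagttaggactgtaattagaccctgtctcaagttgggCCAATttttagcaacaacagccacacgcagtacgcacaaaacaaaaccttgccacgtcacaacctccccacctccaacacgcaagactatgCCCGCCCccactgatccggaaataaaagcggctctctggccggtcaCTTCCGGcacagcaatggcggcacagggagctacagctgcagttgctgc
Sirt4 (chr5:115484248-115484547, minus strand): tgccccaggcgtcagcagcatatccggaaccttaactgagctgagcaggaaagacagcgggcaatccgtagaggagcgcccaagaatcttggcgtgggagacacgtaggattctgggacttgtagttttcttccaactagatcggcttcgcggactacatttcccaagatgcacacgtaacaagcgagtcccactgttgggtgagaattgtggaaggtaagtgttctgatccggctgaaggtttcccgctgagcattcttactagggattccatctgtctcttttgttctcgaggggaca

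The GC box pattern was found at Kdm1b, the CCAAT and GC box patterns at Setd3, the CCAAT and ETS patterns at Kat7, and all 3 at Kat8. At Hdac4 the STAT6 spacing (ttcattagaa) stood beside CCAAT and GC box matches, and Sirt4 had no match. The 11 patterns, searched on both strands, were the CCAAT box (CCAAT), the ETS core (CCGGAAG), the GC box (GGGCGGG), the E-box (CACGTG), the cAMP response element (TGACGTCA), AP-1 (TGANTCA), the STAT6 spacing (TTC and GAA parted by 4 bases), the shorter STAT spacing (TTC and GAA parted by 3 bases), the NRF1 palindrome, PU.1 (GAGGAAGT) and the TATA box (TATAAA). The letters of different patterns may overlap in a promoter. GC boxes stood in 46.5% of the enzyme promoters and 34.5% of all promoters, CCAAT boxes in 42.3% and 38.1%, and ETS cores in 16.9% and 11.9%. The TATA box was in 1.41% of the enzyme promoters (Hdac9) and 12.7% of all. E-boxes stood in 5.63% and 7.89%, AP-1 letters in 9.86% and 7.06%, PU.1 letters in 1.41% and 3.18%, the NRF1 palindrome in 1.41% and 1.34%, and the cAMP response element in 0% and 2.30%. The STAT6 spacing stood in 4.23% of the enzyme promoters, those of Hdac4, Sirt6 and Suz12, and in 6.39% of all promoters, and the shorter STAT spacing in 8.45% and 7.78%. A match is a description of letters, not a binding site.

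At starts with a region in both libraries, the IL-4 pileup was the larger at all 52 genes, as it was at 97.1% of the 11242 such genes in all. The ratio of the IL-4 pileup to the untreated pileup had a median of 1.74 for the enzyme genes (range 1.13 to 2.31) and 1.60 for all genes. It exceeded the 1.14 of the constant backgrounds at 51 of 52 enzyme genes and at 92.3% of all genes. Counting error alone, as a 95% exact interval of the ratio of both pileups, left the ratio above 1 at 43 of the 52 and held the all-gene median at 48. Divided by the constant backgrounds, the enzyme median was 1.52, and the same division lowers the all-gene median by the same factor. Only 54.2% of all listed regions in the IL-4 library and 68.7% in the untreated library were set against the constant background. The IL-4 list is also the longer, and the part of its length in these ratios was not tested. Intervals wholly above 1.60 were those of Kdm1b, Kdm4b and Kat14, and the interval of Hdac2 lay wholly below it. Of 52 intervals at 95%, a few would miss a common ratio by counting error alone. Shares over all genes were not counted for these intervals, so they do not set the named genes apart. With 60 to 79 untreated fragments the median ratio was 1.62 for 11 enzyme genes and 1.65 for 1731 genes, and with 20 to 39 fragments it was 1.79 for 14 and 1.53 for 4261, with an upper quartile of 1.81 over all genes.

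**Figure D3:**
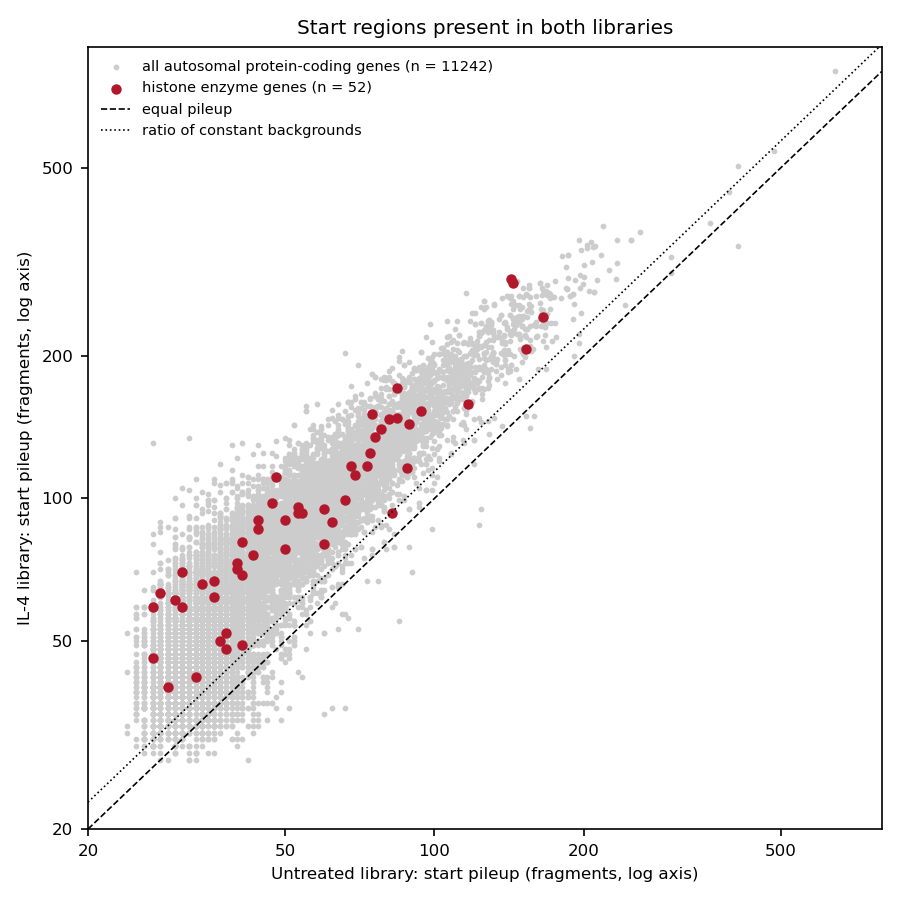
Start pileup in the IL-4 library (vertical, log axis) against that in the untreated library (horizontal, log axis) for the 52 enzyme genes with a start region in both (red) and all 11242 autosomal protein-coding genes with both (grey), with lines at equal pileup (dashed) and at the ratio of constant backgrounds (dotted). The red points lie within the grey cloud, and all are above the dashed line.

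PRC2 methylates H3K27 through Ezh2 or Ezh1, its catalytic subunits, with Suz12 as scaffold and Eed as the reader of the mark. All 4 genes had a start region in each library. Ezh2 (chromosome 6, 47530274 to 47595270, mm10) had 96 fragments in the IL-4 library and 53 in the untreated library, a ratio of 1.81 (1.28 to 2.58). Eed had 89 IL-4 and 62 untreated fragments, Suz12 69 IL-4 and 41 untreated, and Ezh1 67 IL-4 and 36 untreated. The ratios of these 4 genes ran from 1.44 to 1.86. Their windows held few regions, 8 in all in the IL-4 library and 6 in the untreated library.

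The KMT2 and SETD1 enzymes methylate H3K4, apart from Kmt2e, whose SET domain is held to be inactive. Kmt2a (MLL1; chromosome 9, 44803355 to 44881352) had 117 fragments and a fold of 6.95 in the IL-4 library, against 73 fragments and 4.96 in the untreated library. Kmt2b had the highest pileup of the class, 148 IL-4 and 84 untreated fragments, and Kmt2e had 117 IL-4 and 68 untreated. Kmt2c and Kmt2d, the enhancer enzymes MLL3 and MLL4, were weaker, with 98 fragments in the IL-4 library and 47 in the untreated library at Kmt2c, and 59 IL-4 and 27 untreated fragments at Kmt2d, whose untreated region had a −log10 q of only 1.23. Their ratios of 2.09 (1.46 to 3.02) and 2.19 (1.36 to 3.58) were the largest of the class. A stronger Kmt2d region lay across the other end of the gene, with a fold of 5.40 in the IL-4 library and 3.49 in the untreated library. Setd1a had 73 IL-4 and 40 untreated fragments at its start. Setd1b, its paralog, had an end region in the IL-4 library alone, with a fold of 2.12 and a −log10 q of 3.40, and the nearest untreated region lay 7.58 kb away. Its window held 8 regions in the IL-4 library and 2 in the untreated library, of which 3 IL-4 and 1 untreated region reached a −log10 q of 5.

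Among the other SETD and KMT5 enzymes, Setd3 (an actin histidine methyltransferase despite its name; chromosome 12, 108106431 to 108179345) had the strongest start. In the IL-4 library it held 207 fragments and a fold of 9.83, rank 244 of 14352 start regions, and in the untreated library 153 fragments and a fold of 9.66, rank 58 of 11889. Its ratio was 1.35 (1.09 to 1.68). The start of Ccnk lies 454 bp from that of Setd3 on the opposite strand, so the genes cannot be told apart as the source. Setd2, the H3K36 trimethylase, had 125 IL-4 and 74 untreated fragments, and Kmt5c, which trimethylates H4K20, had 144 IL-4 and 89 untreated. Kmt5a, which places a single methyl group on the same residue, had 99 IL-4 and 66 untreated fragments, and Kmt5b 93 IL-4 and 53 untreated. Setd4 and Setd7 were weaker, with 76 IL-4 and 43 untreated fragments at Setd4 and 62 IL-4 and 36 untreated at Setd7. Setdb2, known in macrophages as an interferon-induced repressor, had 78 fragments in the IL-4 library and 50 in the untreated library. The start of Cab39l lies 83 bp from that of Setdb2 on the opposite strand. Setdb1, an H3K9 methyltransferase that silences retroelements, had 1 region in its whole window, in the IL-4 library alone, at its start (chromosome 3, 95357064 to 95357385) with a fold of 3.08, a −log10 q of 9.61 and 51 fragments. The nearest untreated region lay 39.4 kb from that start.

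Setd5 and Setd6 had no start region in either library. For Setd5 (chromosome 6, 113077262 to 113153432) the listed start lies inside the gene, and a wide region at the gene's outer end, 1747 bp with a fold of 5.73 in the IL-4 library and 1862 bp with 4.96 in the untreated library, falls outside the start window. Setd6, which methylates the NF-κB subunit RelA, had its nearest regions 1.94 kb away in the IL-4 library (fold 2.60) and 1.92 kb away in the untreated library (fold 1.95).

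The KDM demethylases held the start of highest fold among the 63 genes in the IL-4 library, while Setd3 had it in the untreated one. At Kdm1b (LSD2, an H3K4 demethylase; chromosome 13, 47043373 to 47085279) the region at 47043039 to 47043827 in the IL-4 library had 291 fragments and a fold of 13.3. The untreated region at 47043014 to 47043825 had 143 fragments and a fold of 9.16. These folds ranked 6 of 14352 start regions in the IL-4 library and 89 of 11889 in the untreated library, and the pileup ratio was 2.03 (1.66 to 2.50). The start of Tpmt, a thiopurine methyltransferase gene on the opposite strand, lies 282 bp away, so the genes cannot be told apart as its source. Kdm1a (LSD1), its paralog, was far weaker, with 63 fragments in the IL-4 library and 28 in the untreated library, a ratio of 2.25 (1.42 to 3.65).

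The KDM4 enzymes demethylate H3K9, and some of them also H3K36. Kdm4b (chromosome 17, 56325970 to 56403774) had 285 fragments in the IL-4 library and 144 in the untreated library at its lower end, with an IL-4 fold of 10 and an untreated fold of 7.92. Kdm4a had 153 IL-4 and 94 untreated fragments, Kdm4c 116 IL-4 and 88 untreated, and Kdm4d 80 IL-4 and 60 untreated. The start of Cwc15 lies 137 bp from that of Kdm4d on the opposite strand. The Kdm4b window was also dense, with 21 regions in the IL-4 library and 14 in the untreated library, although only 6 IL-4 and 1 untreated region reached a −log10 q of 5. A further strong region lay outside Kdm4a, past its other end, with a fold of 5.92 in the IL-4 library and 6.09 in the untreated library. From these lists that region cannot be assigned to Kdm4a.

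Kdm6b (chromosome 11, 69398508 to 69420367), the H3K27 demethylase JMJD3, had no region within 1 kb of either end, by a narrow margin. A strong region began 1.04 kb inside its upper end in the IL-4 library, at 69418675 to 69419329, with 153 fragments and a fold of 6.29. The untreated library had it at 69418692 to 69419300 with 85 fragments and a fold of 5.70. The gene held 6 regions in the IL-4 library and 5 in the untreated library, among them a pair deeper inside with folds of 4.57 and 3.74 in the IL-4 library and 4.29 and 2.90 in the untreated library. Kdm5b, an H3K4 demethylase, had a start region in the IL-4 library alone, at a fold of 2.02 and a −log10 q of 2.33, and its nearest untreated region lay 2.97 kb from the start. Kdm5a, its paralog, had 61 fragments at one end in the IL-4 library and 30 in the untreated library. Kdm2b, a demethylase that binds unmethylated CG islands, had 10 regions in its window in the IL-4 library and 3 in the untreated library, of which 3 IL-4 and 0 untreated regions reached a −log10 q of 5, and 59 IL-4 and 31 untreated fragments at its start. Its paralog Kdm2a had 112 IL-4 and 69 untreated fragments in a region inside the gene that reaches to within 1 kb of its upper end, at a fold of 6.70 in the IL-4 library and 4.69 in the untreated library. The H3K9 demethylases Kdm3a and Kdm3b had 135 IL-4 and 76 untreated fragments at Kdm3a and 93 IL-4 and 54 untreated at Kdm3b. Kdm8 had 95 IL-4 and 60 untreated fragments, and Kdm7a, near the weak end, 40 IL-4 and 29 untreated.

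Pileup ratios of the acetyltransferase genes ran from 1.20 to 2.31. Kat7, an H3K14 and H4 acetyltransferase also called HBO1 (chromosome 11, 95271853 to 95310246), had 171 IL-4 fragments, with a fold of 9.11, against 84 untreated fragments, with a fold of 5.70. Kat6b had 242 IL-4 and 166 untreated fragments and Kat6a, its paralog, 147 IL-4 and 81 untreated. Against the background of its own library the Kat6b region was no higher with IL-4, with an IL-4 fold of 8.51 and an untreated fold of 8.54, while Kat6a had an IL-4 fold of 8.50 and an untreated fold of 5.50. Folds at Hdac2, Hdac4 and Kat6b were the ones lower in the IL-4 list among the 52 shared starts. Kat14, a subunit of the ATAC complex, had 111 fragments in the IL-4 library and 48 in the untreated library. Its ratio of 2.31 (1.63 to 3.32) was the highest of the 52 genes, and the start of Pet117 lies 49 bp from its own.

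Ep300 and Crebbp, the coactivators p300 and CBP, were weaker than these. Ep300 had 86 fragments in the IL-4 library and 44 in the untreated library, a ratio of 1.95 (1.34 to 2.88). Crebbp had 48 IL-4 and 38 untreated fragments, a ratio of 1.26 (0.808 to 1.99) whose interval holds 1. Each of the 2 windows held 5 regions in the IL-4 library and 1 in the untreated library. Kat5 (TIP60) had 49 IL-4 and 41 untreated fragments, a ratio of 1.20 (0.773 to 1.86). Kat8 (MOF, which acetylates H4K16) and Kat2a (GCN5) had start regions in the IL-4 library alone. The Kat8 region (chromosome 7, 127912260 to 127912664) had a fold of 2.67 and a −log10 q of 6.34, with the nearest untreated region 16.8 kb away, and the Kat2a region a fold of 2.25 and a −log10 q of 3.70, with one 2.19 kb away. At the start of Kat2b (PCAF), with 52 IL-4 and 38 untreated fragments, the strongest regions of the libraries did not overlap. The strongest signal of the gene lay inside it, with an IL-4 fold of 6.11 and an untreated fold of 3.22.

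The class I deacetylases work in corepressor complexes, and their starts differed. Hdac1 (chromosome 4, 129516104 to 129542646) had 151 fragments in the IL-4 library and 75 in the untreated library at its upper end, a ratio of 2.01 (1.52 to 2.69). Hdac2, its close paralog, had 93 IL-4 and 82 untreated fragments, a ratio of 1.13 (0.834 to 1.55) and the lowest of the 52 genes. Hdac3, the catalytic subunit of the NCoR complex (chromosome 18, 37936971 to 37955015), had 90 fragments in the IL-4 library and 44 in the untreated library at one end. A stronger region lay outside the gene, in the 2 kb beyond its other end, with 156 IL-4 and 78 untreated fragments. From these lists that region cannot be assigned to Hdac3. The region's IL-4 fold was 8.04, against an untreated fold of 5.30. This was the highest in the IL-4 library among regions away from the starts of the 63 genes. Per length, Hdac10 and Hdac11 had the densest windows of the class in the IL-4 library, with 4 IL-4 regions against 1 untreated at Hdac10 and 8 IL-4 against 3 untreated at Hdac11. At their starts Hdac10 had 66 IL-4 and 34 untreated fragments and Hdac11 90 IL-4 and 50 untreated.

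Hdac4, a class IIa deacetylase that shuttles between cytoplasm and nucleus, had many more regions in the IL-4 list, most of them weak. Its window (chromosome 1, 91928779 to 92195702, and 2 kb each side) held 47 regions in the IL-4 library and 15 in the untreated library, a ratio of 3.13. Of 1910 genes with at least 10 untreated regions, 12 (0.628%), Hdac4 among them, had a ratio at least as high, and the median over the 1910 was 1.30. In the IL-4 list 12 of the 47 regions overlapped an untreated region, a share of 25.5%, beside 45.6% of IL-4 regions in the windows of all genes. The other 35 had a median fold of 2.16, close to the 2.19 of all IL-4 regions in gene windows. Of all its regions, 17 in the IL-4 library and 8 in the untreated library reached a −log10 q of 5, a ratio of 2.12, where the windows of all 63 genes together gave 2.18 at that limit. With the IL-4 list cut to the length of the untreated list it held 35. Its start had 158 IL-4 and 117 untreated fragments, a ratio of 1.35 (1.06 to 1.73), with an IL-4 fold of 7.34 and an untreated fold of 7.53.

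**Figure D4:**
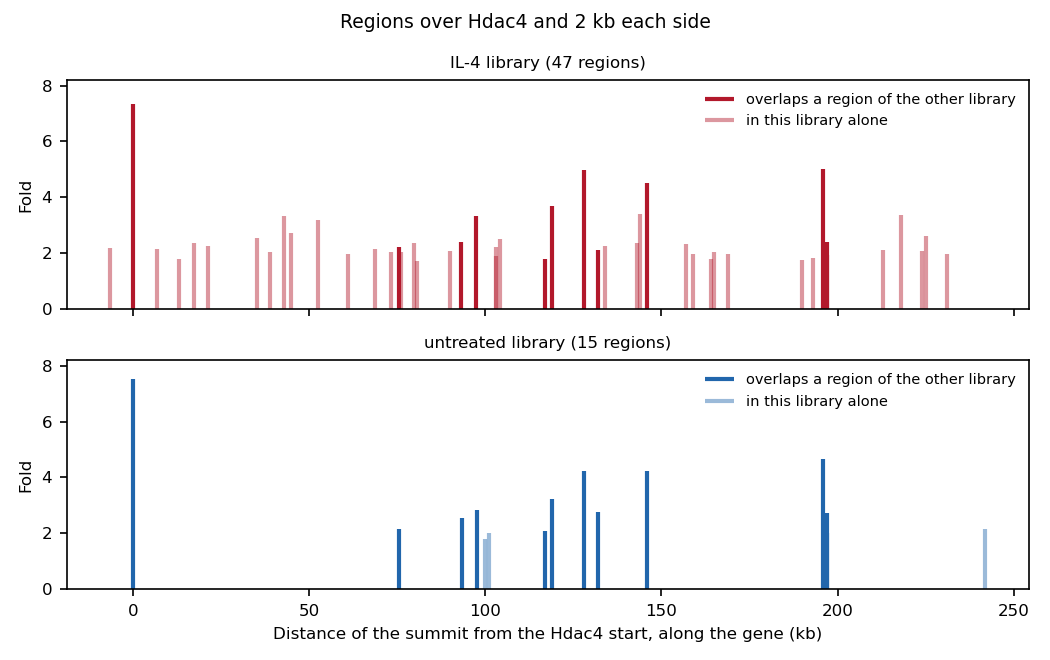
Fold of each region over Hdac4 and 2 kb each side against the distance of its summit from the transcription start along the gene (kb), in the IL-4 library (upper panel, 47 regions) and the untreated library (lower panel, 15 regions). Dark lines overlap a region of the other library and pale lines do not: 35 pale lines stand in the upper panel, spread along the gene.

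Hdac9, another class IIa enzyme and the longest of the 63 genes at 870 kb, held 39 regions in the IL-4 library and 34 in the untreated library, of which 17 in each overlapped. Its folds reached only 3.62 in the IL-4 library and 3.75 in the untreated library, and no region lay within 19.5 kb of a listed start in either library. Hdac7 had 13 IL-4 and 9 untreated regions, with 46 IL-4 and 27 untreated fragments at its start. Hdac5 had 9 IL-4 and 4 untreated regions, with 71 IL-4 and 40 untreated fragments at its start.

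Sirtuins are deacetylases that need NAD, some nuclear and some mitochondrial. Sirt2, a mostly cytoplasmic enzyme (chromosome 7, 28766752 to 28788665), had by far the strongest start of the class, with 140 fragments in the IL-4 library and 78 in the untreated library, and shares it with Nfkbib, an NF-κB inhibitor gene whose start lies 108 bp away on the opposite strand. The mitochondrial Sirt3 had 81 IL-4 and 41 untreated fragments, with the start of the proteasome gene Psmd13 85 bp away. Sirt6 had 70 IL-4 and 31 untreated fragments, a ratio of 2.26 (1.46 to 3.57). Sirt1, the nuclear enzyme best known for deacetylating p53 and NF-κB, had 42 fragments in the IL-4 library and 33 in the untreated library, a ratio of 1.27 (0.788 to 2.07). The mitochondrial Sirt5 had 50 IL-4 and 37 untreated fragments. Sirt4 and Sirt7 had start regions in the IL-4 library alone, Sirt4 with a fold of 2.79 and a −log10 q of 7.22 and Sirt7 with a fold of 2.02 and a −log10 q of 2.33. Their nearest untreated regions lay 5.11 kb from the start of Sirt4 and 5.26 kb from that of Sirt7. The listed start of Sirt4 lies 5.97 kb inside the gene, and a stronger region across the gene's outer end was present in both libraries, with an IL-4 fold of 5.87 and an untreated fold of 4.63. The call of IL-4 alone at Sirt4 is thus for the inner start only.

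In all, 7 genes had a start region in the IL-4 library alone (11.1%, 4.59 to 21.6%), against 15.1% of all genes, and 0 in the untreated library alone, against 3.13%. These were Setd1b, Setdb1, Kdm5b, Kat2a, Kat8, Sirt4 and Sirt7, with folds of 2.02 to 3.08. This count depends on the limit for a region. With only regions of −log10 q of 5 or more, 16 genes had a start region in the IL-4 library alone, against 19% of all genes, and with a fold of 3 or more 15 did, against 14.7%. Among the 7, the regions of Setdb1, Kat8 and Sirt4 reached a −log10 q of 5. A start within 1 kb of another listed start was found for 14 genes, 7 of them facing a gene on the opposite strand that has a name beyond a clone or model number. Regions there cannot be assigned to 1 gene.

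Over whole windows, 333 regions were listed in the IL-4 library and 201 in the untreated library, a ratio of 1.66 (counting interval 1.39 to 1.97), against 1.48 over all genes (1.47 to 1.5). The IL-4 library had more regions at 40 of the 63 genes and fewer at 5, where the shares over all genes were 58.7% and 10.5%. Without Hdac4 the ratio was 1.54, without Hdac9 1.76 and without Kdm4b 1.67. The ratio of the enzyme genes was not above that of all genes at every window length. At 20 to 50 kb (29 enzyme genes) it was 1.56 against 1.65, and at 50 to 100 kb (17) 1.49 against 1.62. Below 20 kb (9) it was 2.17 against 1.59, and from 100 kb up (8) 1.79 against 1.36. By class it was highest for the acetyltransferases, at 2.42 (1.42 to 4.13), with 46 IL-4 and 19 untreated regions. The sirtuins gave 2.0 with 22 IL-4 and 11 untreated regions, and the HDAC genes 1.73 with 126 IL-4 and 73 untreated. Hdac4 alone held 47 of those 126 and 15 of those 73, so the HDAC ratio rests in large part on 1 gene. The KMT2 and SETD1 genes gave 1.73 with 26 IL-4 and 15 untreated regions, and the KDM genes 1.45 with 71 IL-4 and 49 untreated. It was lowest for PRC2, at 1.33 with 8 IL-4 and 6 untreated regions, and for the other SETD and KMT5 genes, at 1.21 with 34 IL-4 and 28 untreated. The interval of each class overlapped those of all others.

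While starts were marked more often than those of all genes, the windows as a whole were sparser. They held 0.747 regions per 10 kb in the IL-4 library and 0.451 in the untreated library, against 1.16 and 0.782 over the windows of all genes. Among windows of 50 to 100 kb the enzyme genes held 0.599 and 0.402, against 1.19 and 0.733 for all genes, and only below 20 kb was the IL-4 value the higher, at 2.38 against 1.80. Listed-start windows took 17.7% of the IL-4 regions and 23.9% of the untreated regions, with median folds of 4.03 and 3.17, while regions inside genes made up 69.1% and 63.7% with median folds of 2.27 and 2.17. In the IL-4 list 79.7% of start-window regions overlapped an untreated region, against 37.8% of those inside genes. In the untreated list these shares were 100% and 66.4%. Over all their regions the enzyme genes gave 46.2% in the IL-4 list and 76.6% in the untreated list, beside 45.6% and 68.6% of regions in the windows of all genes.

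**Figure D5:**
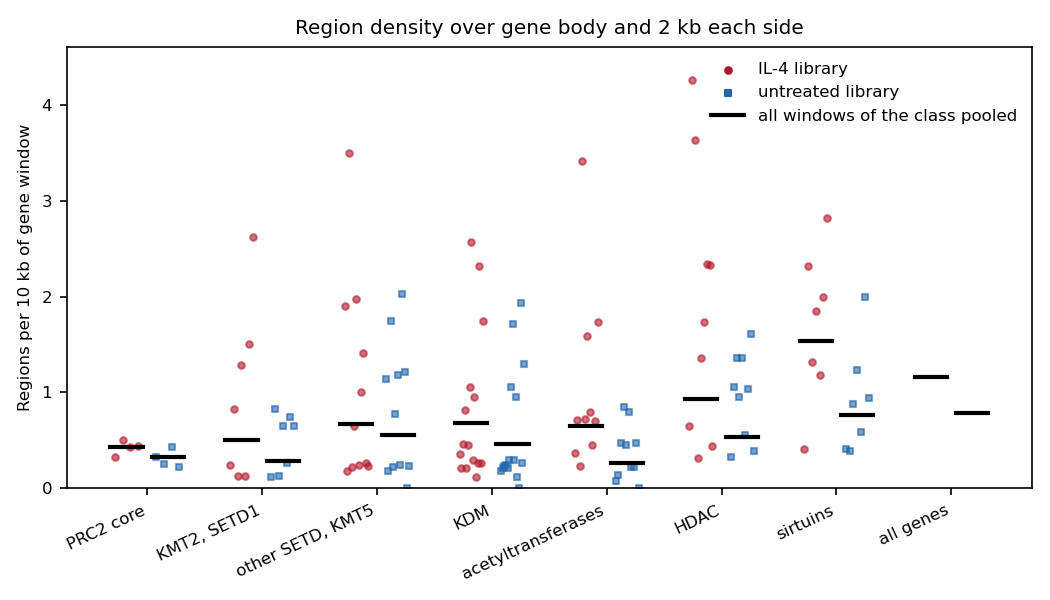
Regions per 10 kb of gene window for each gene (points) and for all windows of a class pooled (black bars), in the IL-4 library (red circles, left) and the untreated library (blue squares, right) of each class, with the pooled values of all autosomal protein-coding genes at the far right. The pooled bar is higher in the IL-4 library in each class, and the sirtuins, whose genes are short, have the highest at 1.54 and 0.768.

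Start regions were also counted at partners and relatives of these enzymes. Of 19 other histone methyltransferases, 18 had a start region in the IL-4 library and 16 in the untreated library, and of 17 COMPASS and PRC2 partner subunits 16 had one in the IL-4 and 13 in the untreated library. Of 21 acetyltransferase partners 21 had an IL-4 and 20 an untreated start region, and of 24 subunits of deacetylase corepressor complexes 22 had an IL-4 and 19 an untreated one. Over all genes 69.5% had one with IL-4 and 57.5% untreated. Of these 4 lists, 0 genes had a start region in the untreated library alone, where 3.13% of all genes did. Their median pileup ratios were 1.81, 1.56, 1.65 and 1.69 in that order, beside 1.74 for the enzymes and 1.60 for all genes.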

How the data were processed

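The CUT&Tag data came as 1 region list for each library. The submitters' processing notes name MACS2 2.2.7.1, Bowtie 0.12.8, mm10 and DiffBind, without roles. Caller settings and any control library are not given in the sources used here. In the deposited lists the fold is the authors' ratio of summit pileup to background. The authors' lists also give a −log10 p and a −log10 q, a whole-number score that follows the p, and a summit offset in bp.

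Pileups were recovered from the deposited fold and p, since MACS adds 1 to pileup and background in the fold. They were whole within 0.05 for 100% of regions. A region counted in a window from 1 bp of overlap. Genes, promoters and strands are RefSeq on GRCm38.p6, and regions were not split into exons and introns. Intervals of shares are exact Clopper-Pearson at 95%, those of pileup ratios the exact binomial of both pileups, and those of region ratios Poisson on the log scale. All cover counting error only. Pileup recovery and overlap counting were tested on simulated data.

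Members and lists were chosen with earlier results of these data known. The 11 promoter patterns were chosen after the data were seen. The genes named by rule were 17 of interest in macrophages or as central enzymes, the strongest starts and densest windows of each class, those with a start region in 1 library alone or in neither, the extremes of the pileup ratio and the strongest regions away from starts. Other members named were chosen after their values were seen. Alternatives covered region limits, equal list lengths, windows, overlap and scaling. Python 3.11.15 was used, together with the libraries numpy (2.4.6), pandas (2.3.3), scipy (1.17.1) and, for plots, matplotlib (3.10.9).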

Additional observations from a re-analysis of the deposited data

How the results depend on the processing

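No paired analysis was possible because each group held 1 library. Of 56 values computed under 12 alternatives, 50 stayed within 1.5 times the reported count or within its counting interval or spread, and 0 reversed. Most of these values are counts of genes, which have no direction that could reverse. Some of the 50 could not move, since cutting the IL-4 list leaves the untreated counts as they were. Wider windows also cannot lower the number of genes with a region. With regions of a −log10 q of at least 5, genes with a start region in the IL-4 library alone numbered 16 instead of 7, and the ratio of region numbers was 2.18 instead of 1.66. With a fold of at least 3 they numbered 15, and 32 genes had an untreated start region instead of 52. With the IL-4 list cut to the length of the untreated list, the ratio of region numbers was 1.38. Pileups divided by the constant backgrounds gave a median ratio of 1.52 instead of 1.74. The cause of these shifts was not tested, except that stricter limits and a shorter list leave fewer regions by construction. A window at either gene end for every gene, chosen after the data were seen, gave 56 and 50 genes in the IL-4 and the untreated library. The depth in reads is unknown, so no lower limit of detection can be given for a gene without a region.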
